A study of Mus musculus with 22 samples.

Results

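The genes described here encode 10 proteins of the canalicular membrane of the hepatocyte, the face of the cell that borders the bile channel: Abcb11, Abcb4, Abcc2, Abcg2, Abcg5, Abcg8, Abcb1a, Atp8b1, Atp7b and Slc47a1. They were chosen by symbol, with earlier results of these data known. Each Ensembl gene that carries one of these symbols in GRCm38 was taken from the table of raw counts. All 10 were in the table, out of 15448 genes, and all 10 passed the filter on low counts that left 14785 genes for testing.

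Polyadenylated RNA was sequenced from the livers of 22 male mice of the CD2F1 strain, a hybrid of BALB/c and DBA/2, all labelled wild type. The C26-TDCA group (n = 8) carried C26 cells, a mouse colon carcinoma line used as a model of cancer cachexia, and received taurodeoxycholic acid (TDCA), the taurine conjugate of a bile acid made by gut bacteria, by daily injection into the peritoneum at 10 mg/kg. The C26 group (n = 8) carried the same tumour cells and is described as untreated; whether it was given vehicle injections is not given in the sources used here. The CT group (n = 6) was sham-injected, carried no tumour and is labelled as given vehicle. The sources used here do not give the age of the mice, the site of the tumour or the day of sampling. Libraries held 16.5 to 28.3 M counts (M, 1000000).

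Bile forms because transporters of the canalicular membrane move bile acids, phospholipid, cholesterol and organic anions out of the hepatocyte, and water follows. Bile acids and phosphatidylcholine leave by separate pumps and form mixed micelles in the channel, which then take up cholesterol. Bile acids return to the hepatocyte through uptake transporters of the opposite, sinusoidal membrane, and the nuclear receptor FXR, encoded by Nr1h4, senses them in the cell and induces several export genes.

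Upstream sequence is shown for the bile acid pump and the phospholipid floppase, the pair whose products form the mixed micelles, and for the interval between Abcg5 and Abcg8, whose sterol transporter half-molecules are encoded head to head. Sequences are from RefSeq on GRCm38.p6, written 5′ to 3′ in lower case, with matches to a searched motif in capitals. The Abcb11 window holds the 250 bases before the gene's start on the minus strand (chr2:69342617-69342866), and its capitals mark a match to IR1. The Abcb4 window holds the 250 bases before the gene's start in RefSeq on the plus strand (chr5:8893471-8893720) and has no capitals, because no searched motif matched. The interval of 109 bases lies between the start of Abcg5 and the Abcg8 start at 84683121, while another annotated start of Abcg8 lies inside Abcg5 at 84676302. The interval is given on the plus strand (chr17:84683012-84683120), and its capitals mark a TATA match that reads toward Abcg5 on the minus strand.
Abcb11: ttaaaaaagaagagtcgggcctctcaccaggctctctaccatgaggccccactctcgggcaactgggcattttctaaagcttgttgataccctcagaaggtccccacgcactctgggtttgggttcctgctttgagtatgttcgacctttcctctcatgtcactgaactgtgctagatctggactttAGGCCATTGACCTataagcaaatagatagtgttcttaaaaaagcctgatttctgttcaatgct
Abcb4: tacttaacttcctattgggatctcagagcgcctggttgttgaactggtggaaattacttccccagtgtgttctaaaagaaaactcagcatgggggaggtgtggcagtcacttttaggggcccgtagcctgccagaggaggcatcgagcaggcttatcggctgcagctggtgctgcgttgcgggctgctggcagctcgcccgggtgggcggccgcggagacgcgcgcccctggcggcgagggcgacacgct
Abcg5-Abcg8 interval: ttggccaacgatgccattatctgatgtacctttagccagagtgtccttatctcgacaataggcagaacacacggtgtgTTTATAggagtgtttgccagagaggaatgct

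Windows from 250 bases before to 50 after a start were available for 8 members and were searched on both strands for 7 motifs. The motif list and the allowance of mismatches were settled after the sequences had been read. IR1, an inverted repeat of AGGTCA with 1 base between and known as an FXR element, was searched with at most 1 mismatch. It matched in the Abcb11 window from 63 to 51 bases before the start, in no other member window, and in 0.0822% of 32851 mouse windows. TATA, written TATAAA with no mismatch, matched in 13.6% of all windows and in 4 windows of the members, among them those of Abcg5 and Abcg8, which share the match. The rest are windows of Abcg2, with matches after the start, at bases 42 to 47 and 2 to 7. ARE, written TGACNNNGC with no mismatch, matched in 12.4% of all windows and in 2 of the members' windows, those of Abcc2 and Abcb1a. The Abcb1a match lies after the start of its window, from base 27 to base 35. That start, at 8567091 on chromosome 5, lies well before the GENCODE start of the gene at 8660077. In 0 windows of the members there was a match to DR4 or DR1, direct repeats of AGGTCA with 4 bases and 1 base between, to HNF1, an inverted repeat of GTTAAT with 1 base between, each with at most 1 mismatch, or to STAT (TTCNNNGAA) with none. Of all windows, 0.25% matched DR4, 0.554% DR1, 0.207% HNF1 and 8.3% STAT. These matches describe letters, and binding was not measured.

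The libraries differed beyond these genes. Principal component 1 of all tested genes held 60.7% of the variance, with C26-TDCA libraries at 22.7 to 46.6, C26 libraries at 4.01 to 51.5 and CT libraries at -92.7 to -85.0. Mouse C26 02, at 4.01, stood closest to the CT libraries, and the next lowest C26 library was at 23.2. The hepatocyte markers were abundant in every library, as the tissue label says, but their level differed: the summed level of 6 markers was 21290 to 31990 CPM (TMM-normalised counts per 1000000) in C26 livers and 54340 to 62980 CPM in CT livers. Most of the sum was Alb, which averaged 15180 CPM in C26 livers and 42190 CPM in CT livers. Of these 6, 3 were lower in C26 (Alb, Ttr and Cps1), 1 was higher (Hnf4a) and 2 were not called (Apoa1 and Serpina1a). Of all tested genes 29.2% were called lower and 28.9% higher in C26 than in CT livers. The part of these shifts in the results below was not tested.

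The first comparison asked how the export genes of tumour-bearing mice differed from those of sham-injected mice. In C26 livers 9 of the 10 genes were lower and 1, Atp8b1, was higher than in CT livers. All 10 were called by edgeR's quasi-likelihood test at a Benjamini-Hochberg adjusted p under 0.05, where 58.1% of all tested genes were called, 29.2% lower and 28.9% higher. For the 9 lower genes no C26 liver reached the lowest CT liver, a pattern seen in 15.3% of all tested genes, and for Atp8b1 every C26 liver was above the highest CT liver, seen in 14.2%. The median log2 fold change of the 10 genes was -0.93, and that of all tested genes was -0.0031. In whole liver, fewer cells of a type and less RNA per cell cannot be told apart.

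**Figure D1:**
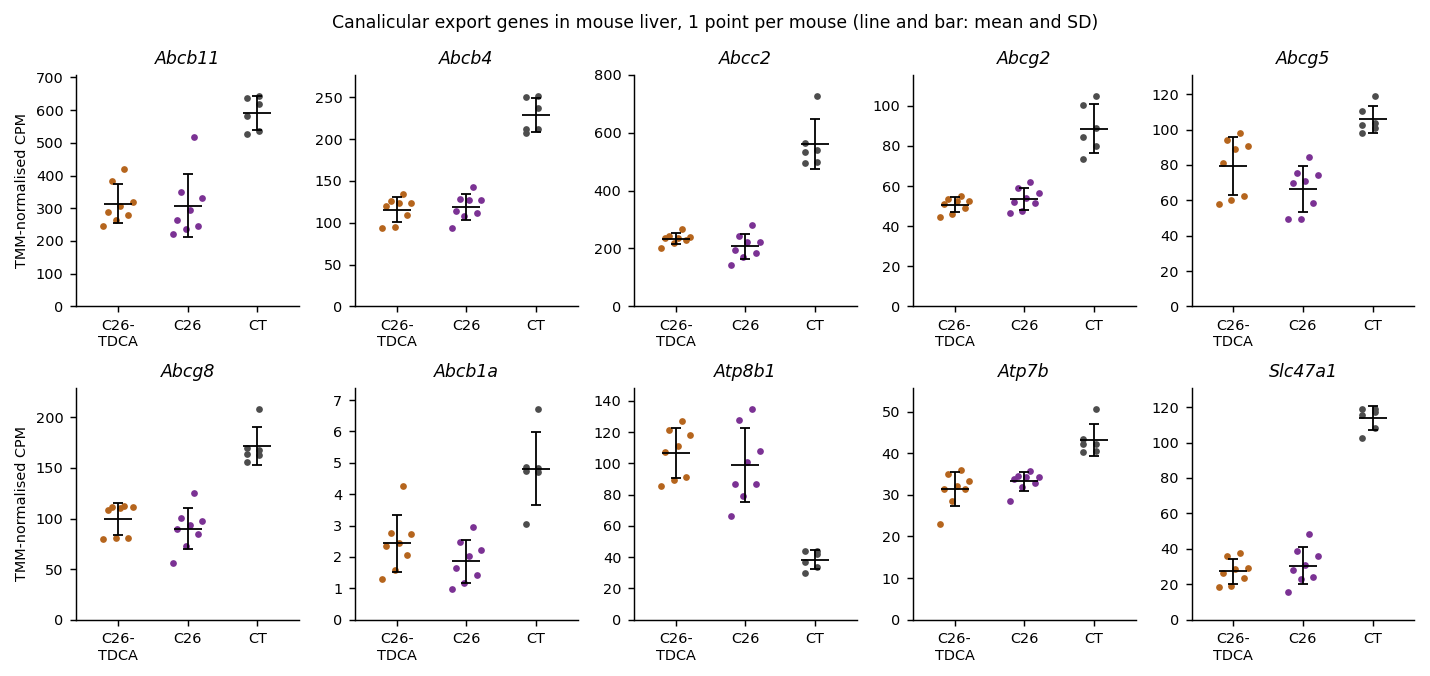
Level of each export gene in TMM-normalised CPM (vertical axes, each from 0) in 8 C26-TDCA, 8 C26 and 6 CT livers; points are mice, and the line and bar are the mean and SD. For every gene except Atp8b1 the means of both tumour groups lie below that of CT, with 1 C26-TDCA mouse inside the CT range for Abcg5 and for Abcb1a; for Atp8b1 the C26-TDCA and C26 points, at 85.5 to 127 and 66.0 to 135 CPM, all lie above the CT points at 29.8 to 44.0 CPM.

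Abcb11 encodes the bile salt export pump, the main route of bile acids into bile. It occupies chromosome 2 from 69238282 to 69342616 (minus strand, GRCm38). Its lowest, median and highest levels were 222, 279 and 518 CPM in C26 livers, against 527, 600.4 and 644 CPM in CT livers. The groups did not overlap, but the highest C26 liver, C26 02, came close to the lowest CT liver, and the other 7 C26 livers reached at most 349 CPM. Abcb11 fell by 0.94 on the log2 scale (SE 0.15, adjusted p = 9.11e-06), to 52.0% of its CT level, and by 1.09 without C26 02 (adjusted p = 3.74e-08). In each group its level tended to be lower in mice with higher label numbers, at 331 CPM in C26 01 and 235.5 CPM in C26 08. It was 419 CPM in C26-TDCA 01 and 263 CPM in C26-TDCA 08, and 644 CPM in CT 01 and 536 CPM in CT 08. The part of this order in the results for Abcb11 and its ratios was not tested.

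Abcb4 encodes the floppase that brings phosphatidylcholine to the outer leaflet for extraction into bile, known as MDR2 in mice. It occupies chromosome 5 from 8893717 to 8959231 (plus strand). Its levels were 94.1, 121 and 143 CPM (lowest, median and highest) in C26 livers, against 207, 225 and 252 CPM in CT livers. The gap between the groups was wider than the range within either. Abcb4 fell by 0.94 (SE 0.092, adjusted p = 4.06e-09), which is the log2 change of Abcb11 to 2 decimals. The log2 ratio of Abcb4 to Abcb11 counts within a library averaged -1.33 ± 0.40 (SD, n = 8) in C26 livers and -1.37 ± 0.20 (n = 6) in CT livers. That difference of 0.044, with a 95% interval of -0.36 to 0.44, was not called (two-sided exact permutation test, p = 0.807). The ratio tended to be higher in mice with higher numbers, at -1.81 in C26 01 and -1.04 in C26 08. It was -1.60 in CT 01 and -1.10 in CT 08. The part of this order in the result was not tested.

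Abcc2 encodes MRP2, which exports bilirubin glucuronides and glutathione conjugates. The gene occupies chromosome 19 from 43782192 to 43840740 (plus strand). Its levels were 142, 208 and 281 CPM in C26 livers (lowest, median and highest), against 494, 538 and 728 CPM in CT livers. No C26 liver came near the CT range, whose top was set by CT 08. Abcc2 fell by 1.43 (SE 0.12, adjusted p = 1.79e-10) to 37.1% of its CT level. Abcg2 encodes the breast cancer resistance protein, an exporter of sulphated conjugates, urate and many drugs, and occupies chromosome 6 from 58584523 to 58695676 (plus strand). It held 46.7, 53.1 and 62.0 CPM in C26 livers, against 73.5, 86.6 and 105 CPM in CT livers. All C26 livers were below all CT livers, and Abcg2 fell by 0.72 (SE 0.080, adjusted p = 3.24e-08).

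Abcg5 and Abcg8 encode the partner subunits of the heterodimer that secretes cholesterol and plant sterols. Abcg5 runs on the minus strand of chromosome 17 from 84658234 to 84683011, and Abcg8 on the plus strand from 84676302, its other start, to 84700333, so that the annotated genes overlap. Abcg5 held 49.3, 70.3 and 84.5 CPM in C26 livers (lowest, median and highest), against 98.1, 103 and 119 CPM in CT livers. Abcg8 held 56.1, 91.6 and 125 CPM in C26 livers, against 156, 166 and 208 CPM in CT livers. Neither gene had a C26 liver inside the CT range. Abcg5 fell by 0.67 (SE 0.13, adjusted p = 9.50e-05), a call that ended when tested against a log2 fold change of 0.5 (adjusted p = 0.114). Abcg8 fell by 0.93 (SE 0.13, adjusted p = 1.32e-06).

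The partners did not fall equally. The log2 ratio of Abcg8 to Abcg5 counts averaged 0.43 ± 0.14 (SD, n = 8) in C26 livers and 0.69 ± 0.068 (n = 6) in CT livers. Its highest C26 value, 0.57, was below its lowest CT value, 0.62. The difference of -0.26, with a 95% interval of -0.40 to -0.13, had a two-sided exact permutation p of 0.00133 (adjusted p = 0.0040 over 21 ratio tests), lower in 8 of 8 C26 livers than in any CT liver. With a trend on transcript length and GC removed, the log2 fold change of Abcg8 minus that of Abcg5 was -0.34, against -0.26 without that step. The annotated exons of the genes share 82 bases on opposite strands. The strand setting of the counting is not given in the sources used here, so reads there cannot be assigned to either gene with certainty.

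The levels of Abcg5 and Abcg8 were also compared between mice within each group. Across the 8 C26 livers their log2 CPM had a Pearson r of 0.917 (exact permutation p = 0.000595, adjusted p = 0.00893 over 15 correlations) and a Spearman rho of 0.881 (exact permutation p = 0.00724, adjusted p = 0.109). Without the 2 livers farthest from the median of Abcg5, r was 0.841 over the remaining 6 and was not called (exact permutation p = 0.0639, adjusted p = 0.382). In C26-TDCA livers r was 0.950 (exact permutation p = 0.0164, adjusted p = 0.0821) and rho 0.548 (exact permutation p = 0.171, adjusted p = 0.829), and r without the 2 farthest livers was 0.894. In CT livers r was 0.911 (exact permutation p = 0.0125, adjusted p = 0.0821) and rho 0.943 (exact permutation p = 0.0167, adjusted p = 0.125), and r over the 4 livers left without the 2 farthest was 0.495. Neither group's correlation was called. The other 4 pairs, Abcb11 with Abcb4, Abcc2 and Nr1h4, and Atp8b1 with Tmem30a, gave r between -0.624 and 0.555 in the 3 groups, with 0 called by the exact permutation test.

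Abcb1a encodes a P-glycoprotein (chromosome 5 from 8660077 to 8748575, plus strand), one of the pair that in mice shares the role of human MDR1 in exporting bulky cationic drugs. It was the least abundant export gene, with 21 to 79 counts per C26 library and 64 to 141 per CT library. Its levels were 0.962, 1.84 and 2.95 CPM in C26 livers, against 3.05, 4.78 and 6.72 CPM in CT livers. The groups did not overlap, though their edges nearly met. Abcb1a fell by 1.35 (SE 0.24, adjusted p = 3.40e-05). Of the 50-base words of its longest transcript, 15.5% also occur in transcripts of Abcb1b, its close copy. How multi-mapping reads were counted is not given in the sources used here, so the split of counts between the copies is uncertain.

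Slc47a1 encodes MATE1, a proton-coupled antiporter that secretes organic cations. It occupies chromosome 11 from 61343401 to 61378345 (minus strand). Its levels were 15.4, 29.4 and 48.3 CPM in C26 livers (lowest, median and highest), against 103, 117 and 119 CPM in CT livers. The highest C26 liver, again C26 02, was far below the lowest CT liver. Slc47a1 fell by 1.90 (SE 0.18, adjusted p = 4.01e-09) to 26.8% of its CT level, the lowest share among the 10 genes.

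Atp7b encodes the copper-transporting ATPase that loads ceruloplasmin and releases copper into bile, the gene of Wilson disease in humans. It occupies chromosome 8 from 21992785 to 22060305 (minus strand). Its levels were 28.5, 34.0 and 35.8 CPM in C26 livers (lowest, median and highest), against 40.2, 42.3 and 50.7 CPM in CT livers. The ranges did not overlap, and the change was the smallest of the 10. Atp7b fell by 0.38 (SE 0.079, adjusted p = 0.000232), to 77.0% of its CT level, and was not called against a log2 fold change of 0.5 (adjusted p = 1).

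Atp8b1 encodes FIC1, a flippase that returns aminophospholipids to the inner leaflet and keeps the canalicular membrane resistant to bile salts. It held 66.0, 94.0 and 135 CPM in C26 livers (lowest, median and highest), against 29.8, 39.6 and 44.0 CPM in CT livers. Every C26 liver was above every CT liver. Atp8b1 rose by 1.36 (SE 0.14, adjusted p = 1.40e-08), to 2.57 times its CT level. Tmem30a, the obligate subunit CDC50A of several flippases, averaged 185 ± 18 CPM (SD, n = 8) in C26 livers and 179 ± 21 CPM (n = 6) in CT livers and was not called (log2 fold change 0.045, SE 0.087, adjusted p = 0.677). The log2 ratio of Atp8b1 to Tmem30a counts averaged -0.93 ± 0.32 in C26 livers and -2.22 ± 0.27 in CT livers, without overlap. The difference of 1.29 (95% interval 0.94 to 1.65) was called (adjusted p = 0.0014), with an exact permutation p of 0.000333, the lowest value within reach of 3003 regroupings. This ratio also tended to be lower in mice with higher numbers, at -0.52 in C26 01 and -0.93 in C26 08. It was -0.67 in C26-TDCA 01 and -1.15 in C26-TDCA 08, and -2.02 in CT 01 and -2.56 in CT 08. The part of this order in the difference was not tested.

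**Figure D2:**
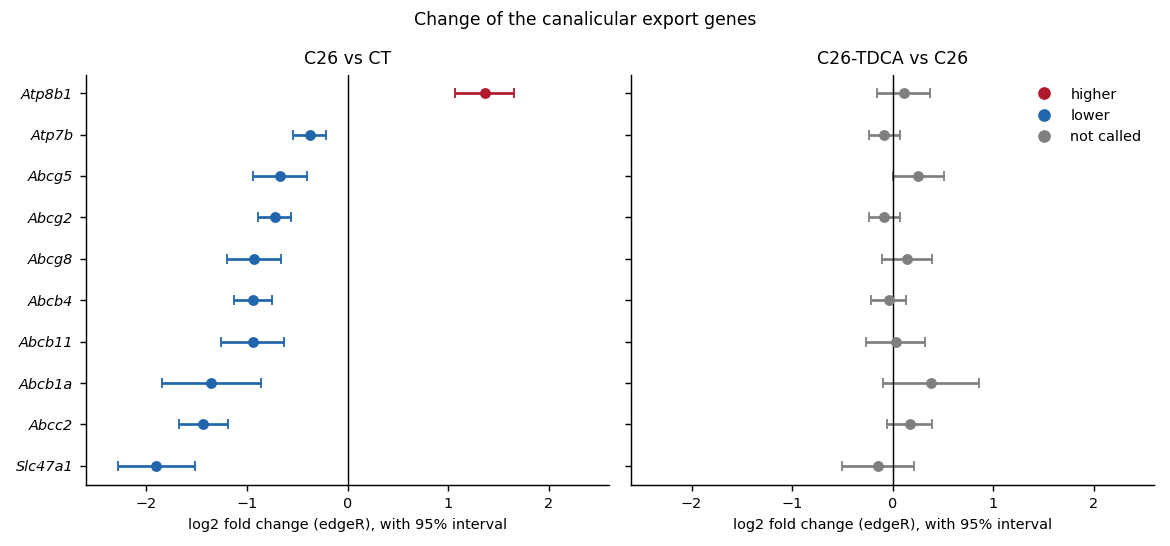
Log2 fold change (horizontal axes, edgeR) of each export gene with its 95% interval, for C26 against CT on the left and C26-TDCA against C26 on the right; blue, red and grey mark lower, higher and not called. On the left 9 genes lie below 0 and Atp8b1 at 1.36, and on the right all 10 are grey.

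Mouse C26 02 held the highest C26 level of Abcb11, Abcc2, Abcg2 and Slc47a1 and the lowest of Abcg8. Without it the log2 fold changes were -1.51 for Abcc2, -0.76 for Abcg2, -2.02 for Slc47a1 and -0.85 for Abcg8, and all 10 genes were still called.

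The order of the genes by level per transcript length changed as well. In CT livers the mean level in CPM per kb of the longest transcript was 118 for Abcb11, 69.8 for Abcc2, 56.0 for Abcb4, 46.7 for Abcg8, 45.0 for Abcg5 and 38.0 for Slc47a1. It was 15.5 for Abcg2, 6.64 for Atp7b, 5.72 for Atp8b1 and 0.964 for Abcb1a. Neighbours in this order overlapped in their CT ranges from Abcc2 down to Abcg5, and for Atp7b and Atp8b1. In C26 livers Abcb11 was still first, at 61.2 CPM per kb. Abcb4 at 29.2, Abcg5 at 28.2, Abcc2 at 25.9 and Abcg8 at 24.6 CPM per kb overlapped one another in range. Atp8b1 was in place 6 in C26 livers, at 14.7 CPM per kb, ahead of Slc47a1 at 10.2 and Abcg2 at 9.39, and in place 9 in CT livers. The C26 range of Atp8b1, 9.83 to 20.1 CPM per kb, overlapped those of Slc47a1 (5.17 to 16.2) and Abcg2 (8.17 to 10.8). Over the union of annotated exons in place of the longest transcript, Abcb4 was in place 6 in every group. Atp8b1 was then in place 5 in C26 livers and in place 9 in CT livers.

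**Figure D3:**
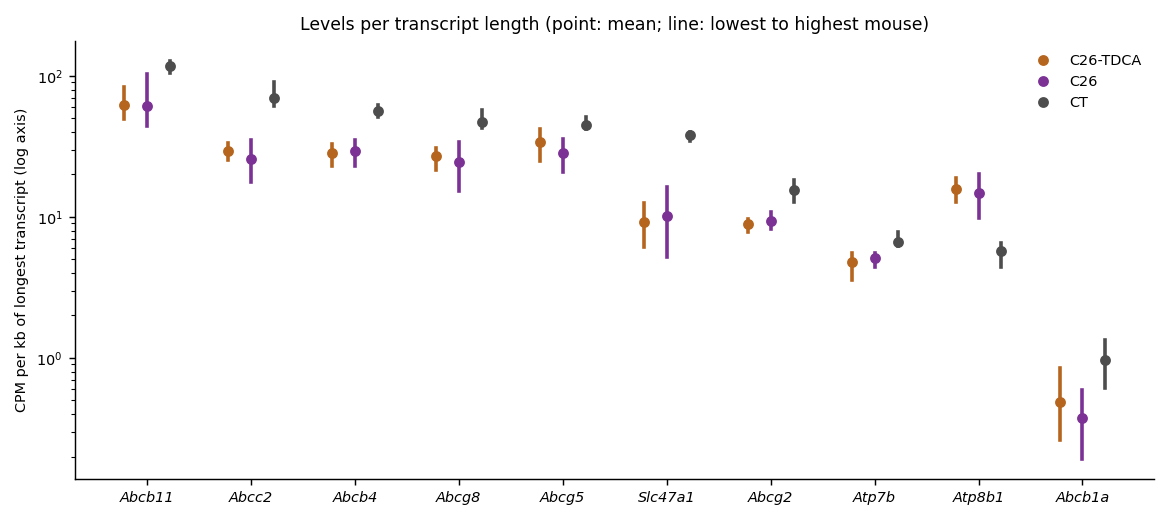
Level per kb of the longest transcript (vertical log axis, CPM per kb) of each export gene, ordered by the CT mean, in C26-TDCA, C26 and CT livers; points are means and lines run from the lowest to the highest mouse. Abcb11 is the highest in all 3 groups, at 62.4, 61.2 and 118 CPM per kb, and Atp8b1 is the one gene whose C26-TDCA and C26 means lie above CT.

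The second comparison asked whether daily TDCA changed the export genes of tumour-bearing mice. None of the 10 genes was called between C26-TDCA and C26 livers by edgeR, where 1.97% of all tested genes were called, 1.73% higher and 0.237% lower, and DESeq2 also called 0. For 0 of the 10 genes did the groups not overlap, a pattern seen as lower in 0.0541% and as higher in 0.0947% of all tested genes. At an unadjusted p under 0.05 in edgeR there was 1 of the 10, Abcg5, where 2335 of all 14785 tested genes passed. The median log2 fold change of the 10 genes was 0.068 and that of all tested genes -0.0137. The 95% intervals of the 10 genes lay between -0.51 and 0.86.

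Abcg5 held 58.2, 85.0 and 98.3 CPM in C26-TDCA livers (lowest, median and highest), against 49.3, 70.3 and 84.5 CPM in C26 livers. The groups overlapped, and 4 of 8 C26-TDCA livers were above every C26 liver. Its log2 fold change was 0.25 (95% interval 0.005 to 0.50, adjusted p = 0.306). Abcg8 held 79.4, 109.5 and 113 CPM in C26-TDCA livers, against 56.1, 91.6 and 125 CPM in C26 livers, with a log2 fold change of 0.14 (95% interval -0.11 to 0.39, adjusted p = 0.615).

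Abcb11 held 247, 298 and 419 CPM in C26-TDCA livers, against 222, 279 and 518 CPM in C26 livers. The ranges overlapped almost fully, and the log2 fold change was 0.029 (95% interval -0.26 to 0.32, adjusted p = 0.947). Without C26 02 it was 0.18 (adjusted p = 0.449). Abcb4 held 94.0, 122 and 134 CPM in C26-TDCA livers, against 94.1, 121 and 143 CPM in C26 livers, with a log2 fold change of -0.041 (95% interval -0.22 to 0.14, adjusted p = 0.869).

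Abcc2 held 202, 236 and 269 CPM in C26-TDCA livers, against 142, 208 and 281 CPM in C26 livers. The C26-TDCA range lay inside the C26 range, and the log2 fold change was 0.17 (95% interval -0.052 to 0.39, adjusted p = 0.469). Abcc3, the sinusoidal exporter MRP3 of the same family, had a log2 fold change of -0.20 (SE 0.12, adjusted p = 0.431). The log2 ratio of Abcc2 to Abcc3 counts averaged 2.18 ± 0.32 in C26-TDCA livers and 1.79 ± 0.41 in C26 livers (SD, n = 8 each). That difference of 0.40 (95% interval -0.0006 to 0.79) had the smallest p of the 6 ratios in this comparison (two-sided exact permutation test, p = 0.05004, adjusted p = 0.0955) and was not called. Without C26 02 it was 0.48 and was called (exact permutation, adjusted p = 0.0385).

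Among the other members, Abcb1a held 1.30, 2.39 and 4.26 CPM in C26-TDCA livers, against 0.962, 1.84 and 2.95 CPM in C26 livers. Its log2 fold change was 0.38, with the widest interval of the 10 (-0.100 to 0.86, adjusted p = 0.449), and it has the fewest counts. Atp8b1 held 85.5, 109 and 127 CPM in C26-TDCA livers, against 66.0, 94.0 and 135 CPM in C26 livers, and its log2 fold change was 0.11 (95% interval -0.15 to 0.37, adjusted p = 0.740). The remaining genes, Abcg2, Atp7b and Slc47a1, had log2 fold changes of -0.084, -0.083 and -0.15, and their intervals also held 0.

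The C26-TDCA group was also compared with CT, which shares its CT livers with the first comparison. Again 9 genes were lower and Atp8b1 was higher by edgeR, where 57% of all tested genes were called, 28.2% lower and 28.7% higher. The log2 fold changes for C26-TDCA against CT were -0.91 for Abcb11, -0.98 for Abcb4, -1.26 for Abcc2, -0.81 for Abcg2 and -0.79 for Abcg8. They were -0.97 for Abcb1a, -0.46 for Atp7b, -2.05 for Slc47a1 and 1.47 for Atp8b1. Abcg5 fell by 0.42 (SE 0.13, adjusted p = 0.0082). Abcg5 and Atp7b were not called against a log2 fold change of 0.5 (adjusted p = 0.973 and 0.888). In 2 of the 9 lower genes, Abcg5 and Abcb1a, 1 of the 8 C26-TDCA livers reached into the CT range, and in the other 7 the groups did not overlap, as in 16.2% of all tested genes for a lower level and 15.4% for a higher one.

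The 6 ratios of counts within a library described here were tested in all 3 comparisons by exact permutation, two-sided, with p-values adjusted over 21 tests, of which these are 18. Between C26 and CT livers 3 were called, between C26-TDCA and C26 livers 0, and between C26-TDCA and CT livers 4. The ratio of Abcb1a to Abcb1b averaged 0.84 ± 0.60 (SD, n = 8) on the log2 scale in C26 livers and 2.43 ± 0.85 (n = 6) in CT livers, a difference of -1.59 (exact permutation p = 0.00167, adjusted p = 0.00437). The groups overlapped, and Abcb1b itself was not called, at 1.02 ± 0.30 CPM in C26 livers and 0.911 ± 0.330 CPM in CT livers.

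Abcb11 and Slc10a1 stand at opposite ends of bile acid passage through the hepatocyte, since Slc10a1 encodes the sinusoidal uptake transporter NTCP. The log2 ratio of Abcb11 to Slc10a1 counts averaged 0.35 ± 0.24 (SD, n = 8) in C26-TDCA livers, 0.22 ± 0.38 (n = 8) in C26 livers and -0.22 ± 0.20 (n = 6) in CT livers. Between C26 and CT livers the difference of 0.44 (95% interval 0.059 to 0.82) was not called (exact permutation p = 0.0270, adjusted p = 0.0566), and leaving out any of C26 06, C26 07 or C26 08 raised it to at least 0.50 and past the threshold. Between C26-TDCA and CT livers the difference of 0.57 was called (exact permutation p = 0.000666, adjusted p = 0.00233), and the groups did not overlap. In each group this ratio tended to be lower in mice with higher numbers. It was 0.77 in C26 01 and -0.24 in C26 08, and 0.58 in C26-TDCA 01 and 0.051 in C26-TDCA 08. In CT 01 and CT 08 it was -0.039 and -0.38. The CT group lacks some of the lower numbers that the tumour groups hold. The permutation test took no account of number, and the part of this order in the differences was not tested. Abcc2 and Abcc3, an export and a sinusoidal member of one family, kept a ratio that was not called between C26 and CT livers (difference -0.079, 95% interval -0.48 to 0.33, exact permutation p = 0.670).

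**Figure D4:**
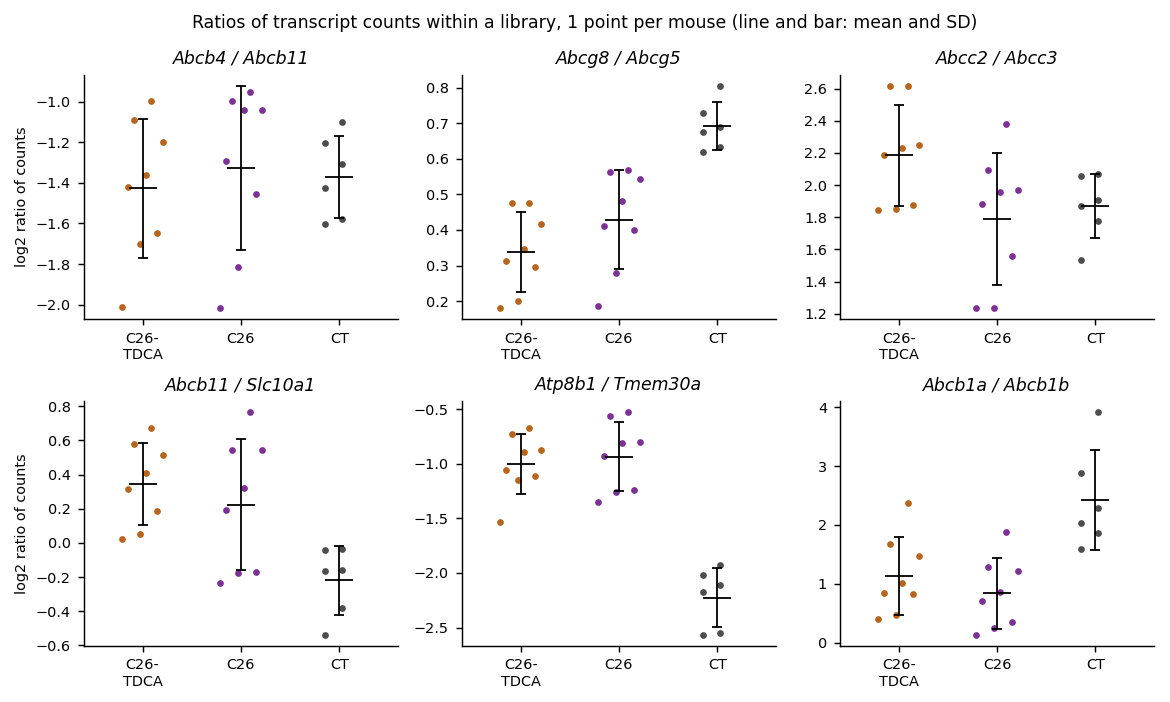
Log2 ratio of the counts of 2 genes within a library (vertical axes, which do not start at 0) in 8 C26-TDCA, 8 C26 and 6 CT livers; points are mice, and the line and bar are the mean and SD. For Abcg8/Abcg5 all C26-TDCA and C26 points lie below CT, for Atp8b1/Tmem30a all lie above CT, and for Abcb4/Abcb11 the 3 groups overlap.

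Other genes of bile formation were read from lists chosen with earlier results of these data known, and their counts for C26 against CT stand beside 28.9% higher and 29.2% lower among all tested genes. Of 12 sinusoidal transporter genes 10 were tested, and in C26 livers 8 were lower, 1 was higher (Abcc4) and 1 was not called, with a median log2 fold change of -1.06. Slc10a1 averaged 258 ± 49 CPM in C26 livers and 687 ± 48 CPM in CT livers. Abcc3 averaged 59.8 ± 11.5 CPM in C26 livers and 153 ± 20 CPM in CT livers, a fall of 1.36 (SE 0.13, adjusted p = 1.98e-09). Slco1a4, an organic anion uptake transporter, averaged 2.96 ± 1.23 CPM in C26 livers and 26.9 ± 8.5 CPM in CT livers (log2 fold change -3.20, SE 0.30, adjusted p = 1.94e-09). Abcc6, an exporter of the sinusoidal membrane, fell by 0.92 (SE 0.086, adjusted p = 1.93e-09).

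Of 16 receptors and transcription factors tied to bile transport, 6 were lower, 5 higher and 5 not called in C26 livers, with a median of -0.16. Nr1h4 averaged 97.2 ± 28.6 CPM in C26 livers and 141 ± 13 CPM in CT livers (log2 fold change -0.54, SE 0.14, adjusted p = 0.00187), and was not called against a log2 fold change of 0.5 (adjusted p = 0.476). Nr1i3, the xenobiotic receptor CAR, averaged 8.29 ± 3.67 CPM in C26 livers and 50.5 ± 9.9 CPM in CT livers (log2 fold change -2.61, SE 0.25, adjusted p = 2.31e-09). Nfe2l2, the oxidative stress regulator NRF2, fell by 0.90 (SE 0.066, adjusted p = 3.04e-11). Esr1, the oestrogen receptor alpha, averaged 44.6 ± 5.6 CPM in C26 livers and 14.1 ± 4.5 CPM in CT livers and rose by 1.66 (SE 0.14, adjusted p = 1.75e-10). Nr5a2, the liver receptor homologue LRH-1, rose by 0.67 (SE 0.072, adjusted p = 1.85e-08).

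Genes that anchor, deliver or seal the canalicular membrane were mixed. Of 29 tested, 12 were higher, 8 lower and 9 not called in C26 livers, with a median of 0.12. Claudin 14 (Cldn14), a tight junction protein, averaged 31.8 ± 3.8 CPM in C26 livers and 8.73 ± 0.93 CPM in CT livers, a rise of 1.87 (SE 0.11, adjusted p = 1.17e-12). Claudin 2 (Cldn2), which forms cation- and water-permeable tight junction channels, rose by 1.23 (SE 0.087, adjusted p = 1.64e-11). Moesin (Msn), a link of membrane proteins to actin that blood and endothelial cells also express, rose by 1.29 (SE 0.12, adjusted p = 1.06e-09). Dpp4, a peptidase of the canalicular surface, fell by 0.87 (SE 0.076, adjusted p = 5.35e-10).

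The copper genes gave 7 higher, 3 lower and 2 not called of 12 in C26 livers, with a median of 0.38. Mt1, a metallothionein that binds zinc and copper, averaged 1805 ± 275 CPM in C26 livers and 62.9 ± 16.2 CPM in CT livers (log2 fold change 4.84, SE 0.16, adjusted p = 3.58e-18). Mt2, its neighbour and relative, rose by 5.23 (SE 0.20, adjusted p = 7.17e-17). Steap4, a metalloreductase, rose by 4.07 (SE 0.12, adjusted p = 3.82e-19), and Cp, which encodes ceruloplasmin, the plasma protein that receives copper from Atp7b, rose by 1.25 (SE 0.081, adjusted p = 3.42e-12).

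Close relatives of the export genes did not share one direction. Of 20 tested, 6 were higher, 4 lower and 10 not called in C26 livers, with a median of 0.10, where 28.9% of all tested genes were higher and 29.2% lower. Atp11a, a plasma membrane flippase, averaged 130 ± 22 CPM in C26 livers and 17.3 ± 5.7 CPM in CT livers (log2 fold change 2.91, SE 0.18, adjusted p = 8.51e-13). Abcc5, a nucleotide exporter, rose by 1.45 (SE 0.20, adjusted p = 9.71e-07) and Abcg1, a cholesterol exporter of macrophages, by 1.09 (SE 0.12, adjusted p = 6.17e-08).

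**Figure D5:**
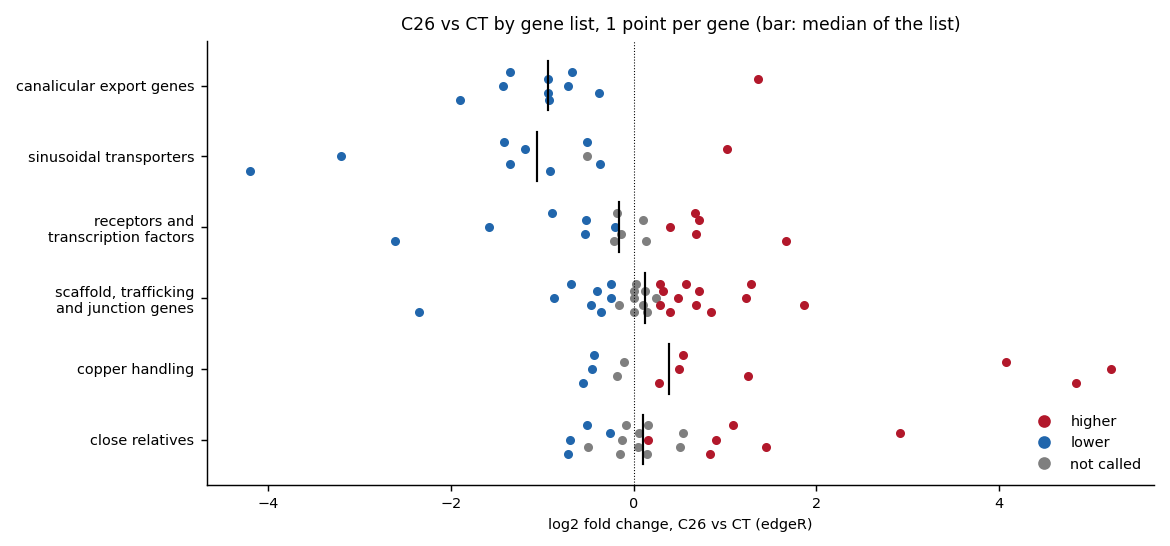
Log2 fold change of C26 against CT (horizontal axis, edgeR) for the 10 export genes and 5 lists of related genes, 1 point per tested gene, with a bar at each list's median; red, blue and grey mark higher, lower and not called. The medians of the export genes and of the sinusoidal transporters lie at -0.93 and -1.06, and those of the other 4 lists between -0.16 and 0.38.

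Between C26-TDCA and C26 livers 0 of the 10 sinusoidal transporters and 0 of the 16 receptors and transcription factors were called by edgeR. DESeq2 also called 0 in both lists. At an unadjusted p under 0.05 in edgeR there were 1 and 2 of them, where 2335 of all 14785 tested genes passed. At the same threshold there were 6 of 29 scaffold, trafficking and junction genes, 4 of 12 copper genes and 7 of 20 close relatives. In these 3 lists edgeR called 1 gene each, all higher, where 1.97% of all tested genes were called, 1.73% higher. DESeq2 called the same genes and, as lower, Atox1, a copper chaperone, and Atp9a, a relative of the flippases, which edgeR did not call (log2 fold changes -0.26 and -0.18, adjusted p = 0.0820 and 0.0920). Usp53, a tight junction protein, averaged 12.2 ± 0.9 CPM in C26-TDCA livers and 9.71 ± 1.08 CPM in C26 livers (log2 fold change 0.33, SE 0.076, adjusted p = 0.0262). Atp7a, the copper ATPase of other tissues and close relative of Atp7b, averaged 5.79 ± 2.09 CPM in C26-TDCA livers and 2.37 ± 1.64 CPM in C26 livers (log2 fold change 1.27, SE 0.33, adjusted p = 0.0464). Atp8a1, an aminophospholipid flippase, averaged 9.59 ± 2.07 CPM in C26-TDCA livers and 6.46 ± 1.33 CPM in C26 livers (log2 fold change 0.56, SE 0.14, adjusted p = 0.0337). With the trend on transcript length and GC removed none of the 3 was called, with adjusted p-values of 0.538, 0.112 and 0.324, and none of them in the fit of only these groups. Of 16 removals of a single mouse, the call remained in 10 for Usp53, 3 for Atp7a and 6 for Atp8a1. Over these removals the log2 fold change ranged from 0.30 to 0.35 for Usp53, from 1.11 to 1.55 for Atp7a and from 0.51 to 0.63 for Atp8a1.

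Among the sinusoidal transporters the genes with the smallest p were Slco1a4 (log2 fold change 0.87, adjusted p = 0.131) and Abcc3, given above. Among the receptors and transcription factors they were Esr1 (0.29, adjusted p = 0.217) and Nr5a2 (0.14, adjusted p = 0.312).

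Markers of other liver cells moved with the first comparison. Their counts for C26 against CT stand beside 28.9% higher and 29.2% lower among all tested genes. Of 6 bile duct cell markers tested, Sox9, Spp1 and Muc1 were higher in C26 livers, and Krt7, Krt19 and Epcam were not called. Their summed level was 242 to 767 CPM in C26 livers and 20.2 to 34.3 CPM in CT livers, most of it Spp1, which averaged 411 ± 172 CPM in C26 livers and 18.8 ± 3.6 CPM in CT livers. All 8 markers of sinusoidal endothelium (333 to 578 CPM summed in C26 livers, 227 to 285 CPM in CT livers) and all 8 of Kupffer cells (346 to 522 CPM in C26 livers, 205 to 244 CPM in CT livers) were higher. Stellate cell markers were higher for 6 of 8 and lower for 1 (308 to 492 CPM in C26 livers, 214 to 285 CPM in CT livers). Monocyte and neutrophil markers were higher for 6 of 7 (19.2 to 48.0 CPM in C26 livers, 2.26 to 6.57 CPM in CT livers). Of 4 T and NK cell markers in the table, summing to 0.478 to 1.26 CPM in C26 livers and 1.05 to 3.34 CPM in CT livers, 2 passed the filter and 1 of these was lower, and of 4 intestinal markers 1 was higher and 2 lower (146 to 205 CPM in C26 livers, 183 to 234 CPM in CT livers). No tested marker was at 0 in every library of a group, and of 6 kidney tubule markers 0 were in the table of counts. Between C26-TDCA and C26 livers 0 of 49 tested markers were called by edgeR, and DESeq2 called 4, all higher (Cd163, Kdr, Reln and Rgs5). At an unadjusted p under 0.05 in edgeR there were 10 of the 49, where 2335 of all 14785 tested genes passed. The part of these cells in the results was not tested.

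Across all 22 libraries the genes whose profile was most like that of Abcb11 were Gpd2, Abca2 and Adipor2, by the root mean square distance of log2 CPM centred on each gene's mean (0.188, 0.191 and 0.199). The nearest export gene was Abcb4, in place 295 with a distance of 0.317, and Atp8b1 was in place 13298. These distances describe likeness in 22 libraries that fall into 3 groups. Gpd2 encodes the mitochondrial glycerol-3-phosphate dehydrogenase, and averaged 24.9 ± 6.7 CPM in C26 livers and 52.4 ± 4.8 CPM in CT livers.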

How the data were processed

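Liver RNA of 22 mice was measured as raw read counts per Ensembl gene, which the authors deposited in a table with 1 column per mouse. The submitters' processing notes name GRCm38 and, in no stated order, DESeq2 1.42.0, featureCounts 2.0.3, HISAT2 2.2.1, Trimmomatic 0.40, FastQC and bcl2fastq 2.17. The sources used here do not give the strand setting, the annotation release or how multi-mapping reads were counted. Columns were matched to mice, and mice to groups, by the labels. Replicates are separate mice per the design text.

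Counts were tested with edgeR 4.0.16 in R 4.3.3: filterByExpr with a minimum count of 10 kept 14785 genes and removed 663, libraries were scaled by TMM, and 1 quasi-likelihood model over 22 libraries gave 3 contrasts, adjusted by Benjamini-Hochberg over all genes at 0.05. Each standard error is the size of the log2 fold change divided by the root of its F, and intervals are 95%. The TMM factors were 1.15 to 1.20 in CT, 0.878 to 0.982 in C26 and 0.890 to 1.01 in C26-TDCA libraries. CPM and fold changes against CT include this difference between groups. At these depths 3 counts were 0.1 to 0.18 CPM. Log2 CPM used a prior count of 2, and log2 ratios of counts a pseudocount of 0.5. Intervals of ratios invert the permutation test. Symbols, coordinates and lengths are from GENCODE M21, which matched 15443 of 15448 genes. The mouse numbers of the labels were not used as pairs. On simulated counts of 14275 genes for C26 against CT, 72.2% of 97 genes changed by 1 log2 unit were recovered, and 48.9% of 94 changed by 0.5. The simulation changed only 200 genes and drew all groups from CT means, whereas 58.1% of tested genes were called in the data. These shares therefore need not hold for the real comparison.

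Results that need either of 2 genes are not reported here. The members and lists were chosen with earlier results of these data known. Named genes are the members, their ratio and pair partners, up to 4 called genes by p of each of 5 lists (up to 2 where none was called) and the 3 genes nearest to Abcb11; Alb, Ttr and other markers are named from 9 marker lists. Alternatives were upper-quartile scaling, size factors of DESeq2, DESeq2 1.42.0 itself, no filter, voomWithQualityWeights in limma 3.58.1, the 2 groups alone, a replicate block, removal of each library, removal of a loess trend on transcript length and GC (span 0.3), and glmTreat with a log2 threshold of 0.5.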

Additional observations from a re-analysis of the deposited data

Results flagged for a closer look

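In 4 of 48 groups of values checked, 1 mouse lay far from the rest of its group by Dixon's 95% limit, which chance passes in about 1 of 20 groups. Abcb11 was at 518 CPM in C26 02, against 222 to 349 CPM in the other 7 C26 livers. Abcc2 was at 728 CPM in CT 08, against 494 to 563 CPM in the other CT livers. Abcg8 was also highest in CT 08, at 208 CPM, against 156 to 170 CPM in the others. Atp7b was at 50.7 CPM in CT 05, against 40.2 to 43.4 CPM in the others. Without CT 08 the log2 fold changes of C26 against CT were -1.34 for Abcc2 and -0.87 for Abcg8, and both were still called.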

How the results depend on the processing

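Between C26 and CT, and between C26-TDCA and CT, all 10 genes kept their direction under 9 alternatives and the removal of each library. All stayed called except Abcg5 and Atp7b against a log2 fold change of 0.5 (-0.67 and -0.38 in C26, -0.42 and -0.46 in C26-TDCA). Between C26-TDCA and C26, 0 genes were called under any alternative. There the log2 fold change turned negative with the length and GC trend removed for Abcb11 (-0.043), Abcc2 (-0.033) and Atp8b1 (-0.030). With 1 library left out it ranged from -0.042 to 0.18 for Abcb11 and from -0.084 to 0.0008 for Abcb4, and that of Tmem30a in C26 against CT from -0.016 to 0.078. Over all genes, 291 were called between C26-TDCA and C26, but 17 with that trend removed, 45 with only those groups, 21 with the replicate block, 554 with DESeq2, 468 with voom and 0 against a log2 fold change of 0.5. With 1 library left out the count ranged from 59 (C26-TDCA 04) to 594 (C26 01), and the 1.97% of genes called moves with it. It was under 291 by over 1.5 times without any of C26 05, 06 and 08 (100, 103 and 127) and C26-TDCA 02, 03, 05 and 06 (172, 105, 159 and 138), and over it without C26-TDCA 08 (498).

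Under the replicate block no call of an export gene changed. Of same-numbered pairs, 0 of 6 (C26 and CT), 5 of 8 (C26-TDCA and C26) and 1 of 6 (C26-TDCA and CT) deviated together with a correlation over 0.1, and 0, 2 and 3 correlated best with their own number. For the ratios, pairs of same-numbered libraries in a sign-flip exact permutation test ended every call; the smallest p that 6 pairs can give is 0.03125 before adjustment over 21 tests, so for the comparisons with CT this loss was nearly fixed by the number of pairs. For C26 against CT the differences were -0.30 (Abcg8/Abcg5), 1.21 (Atp8b1/Tmem30a) and -1.84 (Abcb1a/Abcb1b). For C26-TDCA against CT they were -0.35, 1.15 and -1.26 in the same order, 0.50 for Abcb11/Slc10a1 and 0.038 for Abcb4/Abcb11, which reversed. With 1 library left out, Abcb4/Abcb11 ranged from -0.0090 to 0.14 in C26 against CT and from -0.12 to 0.026 in C26-TDCA against CT. Abcc2/Abcc3 ranged from -0.16 to 0.0004 in C26 against CT and from 0.32 to 0.48 in C26-TDCA against C26, and Abcb11/Slc10a1 from 0.37 to 0.51 in C26 against CT. In C26-TDCA against C26, Atp8b1/Tmem30a ranged from -0.13 to 0.0055. Of 15 correlations, 1 was called and 0 without the 2 farthest libraries. That removal leaves 6 libraries in each tumour group and 4 in CT, and narrows the range of 1 gene of each pair. Over 4 CT libraries even an r of 0.944 (Atp8b1 with Tmem30a) had an exact permutation p of 0.167. The loss of the call therefore cannot decide whether the correlation holds. A pseudocount of 1 changed no call of a ratio. Where no cause is given, the cause was not tested.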
